A study of Drosophila melanogaster with 23 samples.

Results

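The genes described here build and fire the DNA replication machinery of *Drosophila melanogaster*. A fixed list, chosen with earlier results of these data known, named 35 of them by FlyBase symbol. Of these, 34 were found among the 17714 gene identifiers of the deposited tables, and Orc1 could not be matched to an identifier and is not analysed here. They fall into the origin recognition complex (5 genes), licensing (3), the helicase core (6), helicase activation (6), the polymerases (5), the clamp and its loader (5), ribonucleotide reduction (2) and S-phase entry (2).

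DNA is copied once per cell cycle. The origin recognition complex marks the start sites, Cdc6 and dup (Cdt1) place the Mcm2 to Mcm7 ring on them, and geminin holds dup in check. The kinase Cdc7, Mcm10 and the GINS proteins Psf1, Psf2, Psf3 and Sld5 then help to switch the ring on as a helicase. Polymerase alpha starts each strand, polymerases epsilon and delta extend it on the PCNA clamp that the RfC complex loads, and ribonucleotide reductase supplies deoxynucleotides. E2f1 drives transcription of many of these genes and Cyclin E starts S phase. In the adult fly midgut, intestinal stem cells (ISCs) are the main dividing cells, while enteroblasts and enterocytes can copy their DNA without division.

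Midgut RNA was sequenced from flies that constantly expressed OKSM (human Oct4, KLF4, Sox2 and Myc from 1 transgene), a senolytic peptide construct (Sen), both (OKSM-Sen), or the fluorescent protein TdTomato alone (WT). In the ISC model the transgenes were under escargot (esgGal4, UAS-GFP; tubGal80ts), which is active in ISCs and enteroblasts, and in the ubiquitous model under armadillo (armGal4; tubGal80ts), so that every group, WT included, carried a Gal4 driver and temperature-sensitive Gal80. The stock list of the study gives the escargot stock a further UAS-dCas9.VPR transgene, and lists the armadillo crosses with UAS-GFP. There were 12 libraries in the ISC model (3 per group) and 11 in the ubiquitous model (3 each of OKSM, OKSM-Sen and WT, and 2 of Sen). The age of the flies and the number of guts per library are not given in the sources used here.

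Library totals were 14626936 to 18974759 expected counts in the ISC model and 33438269 to 46324866 in the ubiquitous model, so driver and depth cannot be told apart between models. The ISC model libraries are labelled as intestinal stem cells, but the methods describe whole midguts, and 10 enterocyte genes together took 16230 to 66720 CPM (counts per 1000000 counted reads, TMM-scaled within a model) in them. The labels state that the annotation of ISC Sen replicate 3 and ISC OKSM-Sen replicate 3 was once exchanged and then corrected, and results that change without this pair are given both ways. The study describes Sen as a fragment of Fork Head in its methods and as based on foxo elsewhere, and reads of the construct were not separated from those of either gene, so neither level checks the Sen label. In the ISC model fkh lay at 112 to 153 CPM in Sen and 95.1 to 161 CPM in OKSM-Sen. It lay at 80.9 to 109.8 CPM in OKSM, which carries no Sen, and at 93.7 to 114.7 CPM in WT. The foxo level was 66.6 to 94.8 CPM in Sen, 88.7 to 90.8 CPM in OKSM-Sen and 75.6 to 83.8 CPM in OKSM. Each of these groups lay below WT, at 134 to 178 CPM. In ubiquitous Sen fkh lay at 87.9 and 52.4 CPM, against 67.3 to 97.8 CPM in WT, and foxo at 106 and 143 CPM, against 115.1 to 143 CPM in WT. Ovary and egg RNA was present, with 21 such genes, yolk proteins included, summing to 212 to 2083 CPM in ISC model libraries and 85.4 to 475 CPM in ubiquitous ones, although vas, nos, bam, bcd and Vml of that list stayed at or under 0.89 CPM in every library. No source says whether the replicates were separate cohorts, and a p-value here covers only the variation among the libraries of a group, which may be technical. Since these are bulk libraries, fewer cells of a type and less RNA per cell cannot be told apart.

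Per kilobase of transcript, the replication genes spanned a wide range of levels. These levels were put on 1 scale for all 23 libraries. Driver and depth cannot be told apart between models, so the order of groups across models is a description only. Averaged over the 23 libraries, geminin stood highest at 28.9 CPM per kilobase, followed by E2f1 at 26.3, RnrS at 23.2, Psf3 at 21.7 and PCNA at 12.1. Mcm10 at 0.891, Cdc6 at 0.881 and the polymerase epsilon subunit PolE1 at 0.749 stood lowest. The genes also differed in how far their level varied between groups. E2f1 differed 1.16-fold between its highest and lowest group mean and geminin 1.27-fold, whereas PCNA differed 5.96-fold and Mcm10 9.05-fold. The lowest of the 8 group means was in ubiquitous Sen for 17 of the 34 genes, and the highest was in ISC Sen for 11 and in ISC OKSM-Sen for another 11.

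**Figure D1:**
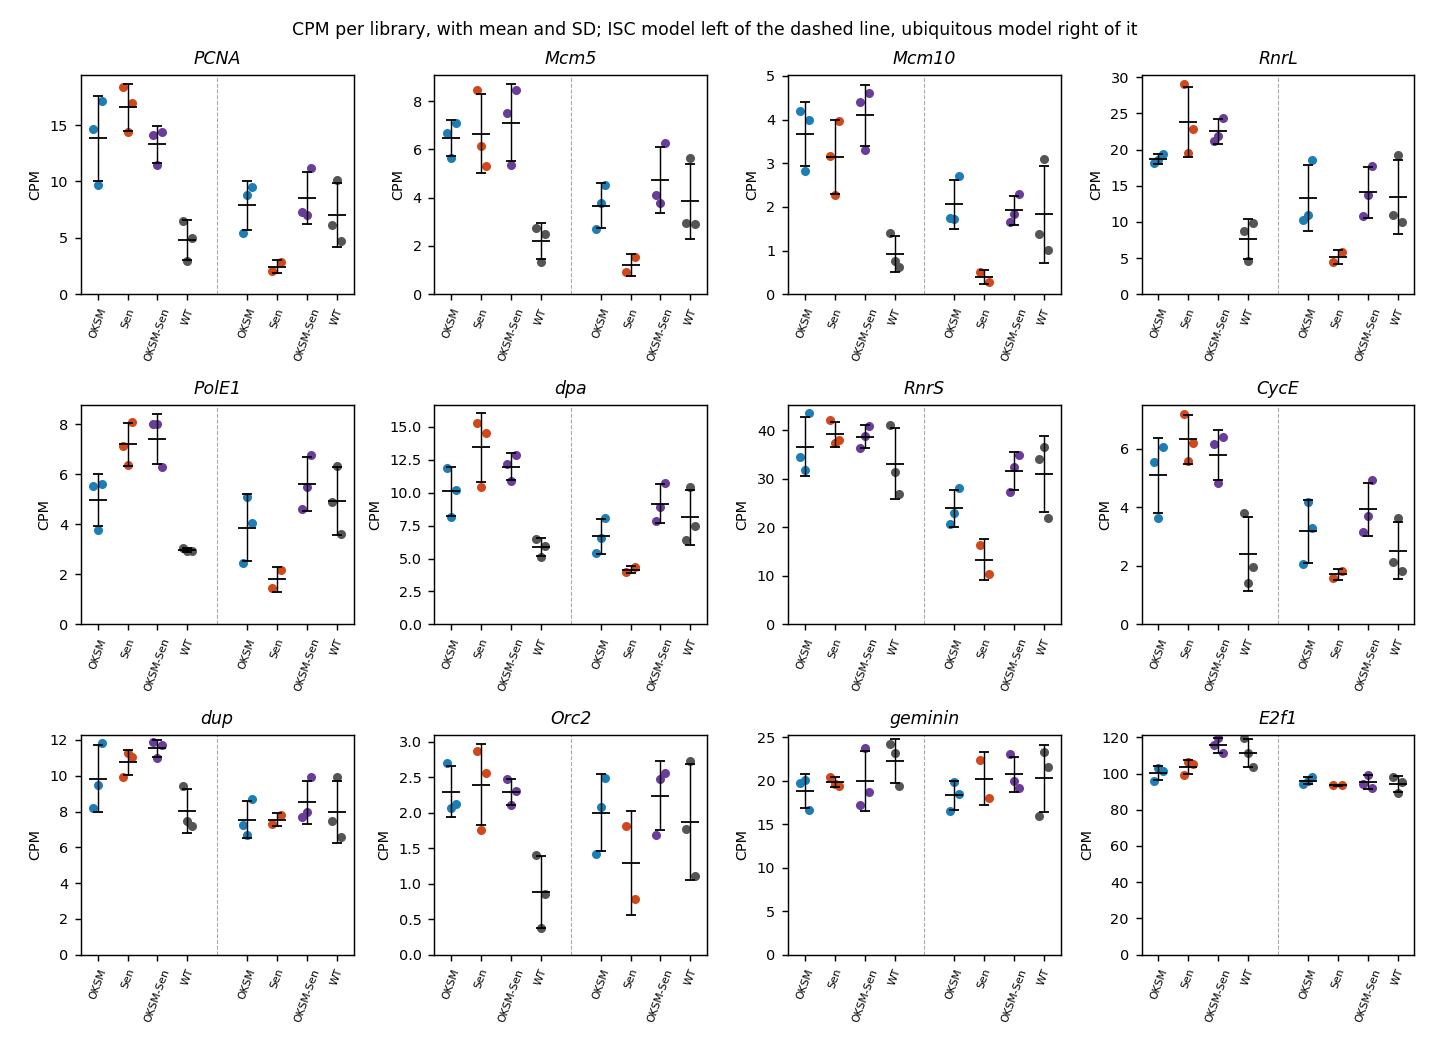
CPM of 12 replication genes in each library, ISC model left of the dashed line and ubiquitous model right of it (points, libraries; bars, mean and SD). In PCNA the ISC construct libraries lay between 9.70 and 18.4 CPM, above all ISC WT libraries, and the ubiquitous Sen libraries at 2.03 and 2.83 CPM lay below all ubiquitous WT libraries, while E2f1 stayed between 89.3 and 120 CPM throughout.

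When the constructs were restricted to ISCs and enteroblasts, the replication genes were higher than in WT under each of them. With edgeR's quasi-likelihood test and a false discovery rate of 10%, 18 of the 34 genes rose under OKSM, 17 under Sen and 20 under OKSM-Sen, and none fell. That is 52.9%, 50% and 58.8% of them, where 17.3%, 18.2% and 15.7% of all 9374 genes tested rose. The median log2 fold change over the 34 genes was 0.72, 0.70 and 0.69, beside 0.01, -0.02 and 0.02 over all genes. The 3 comparisons share their WT libraries.

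All 6 helicase core genes rose under each construct. In the ISC model, Mcm2 measured 6.76, 5.99 and 6.61 CPM in OKSM, 7.19, 6.27 and 5.47 CPM in Sen, 5.83, 7.18 and 7.08 CPM in OKSM-Sen, and 3.75, 3.43 and 3.92 CPM in WT. Mcm3 measured 8.40, 8.12 and 8.85 CPM in OKSM, 9.94, 7.38 and 8.16 CPM in Sen, 7.28, 7.82 and 6.81 CPM in OKSM-Sen, and 4.07, 2.86 and 4.04 CPM in WT. For both genes every construct library lay above every WT library. For dpa, the fly Mcm4, the values were 11.9, 8.19 and 10.2 CPM in OKSM, 15.3, 10.4 and 14.6 CPM in Sen, 10.9, 12.9 and 12.1 CPM in OKSM-Sen, and 6.48, 5.14 and 5.94 CPM in WT. Mcm5 was at 6.69, 5.64 and 7.11 CPM in OKSM, 8.48, 6.15 and 5.32 CPM in Sen, 5.35, 8.46 and 7.52 CPM in OKSM-Sen, and 2.73, 1.33 and 2.51 CPM in WT. The groups again did not overlap WT, and Mcm5 had the highest fold changes of the ring (log2 1.56 ± 0.29, 1.60 ± 0.29 and 1.69 ± 0.29 SE in OKSM, Sen and OKSM-Sen, adjusted p = 0.0042, 0.00256 and 0.00296). Mcm6 had 9.39, 7.70 and 9.98 CPM in OKSM, 12.9, 9.67 and 9.87 CPM in Sen, 10.1, 11.8 and 9.28 CPM in OKSM-Sen, and 6.87, 4.38 and 5.45 CPM in WT. For Mcm7 they were 8.68, 5.78 and 7.98 CPM in OKSM, 11.9, 6.97 and 7.67 CPM in Sen, 7.46, 7.95 and 7.63 CPM in OKSM-Sen, and 3.37, 1.21 and 4.47 CPM in WT. Neither overlapped WT. Over the ring the log2 fold changes ran from 0.70 (Mcm6) to 1.56 in OKSM, from 0.77 (Mcm2) to 1.60 in Sen and from 0.85 (Mcm2) to 1.69 in OKSM-Sen. An annotated antisense RNA covers 81.7% of the exons of Mcm7, and no source used here says whether counting used strand, so reads of Mcm7 and of that RNA cannot be told apart.

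Mcm10, a factor that binds the ring and helps to activate it, had the largest log2 fold change of the 34 genes in OKSM and OKSM-Sen. Its levels were 4.20, 2.82 and 3.99 CPM in OKSM, 3.16, 2.28 and 3.98 CPM in Sen, 3.31, 4.61 and 4.39 CPM in OKSM-Sen, and 1.40, 0.762 and 0.612 CPM in WT. The WT levels of Mcm10 rest on 22, 12 and 10 reads. The log2 fold changes were 1.98 ± 0.34, 1.75 ± 0.34 and 2.14 ± 0.34 SE in OKSM, Sen and OKSM-Sen (adjusted p = 0.00317, 0.00387 and 0.0022). Among the GINS genes, Psf1 rose in OKSM and OKSM-Sen (log2 0.75 and 0.72), as did Sld5 (0.94 and 0.64). In Sen their log2 fold changes were 0.19 and 0.55 and were not called, and a direct test of Sen against OKSM called neither. The Sld5 call in OKSM-Sen ended under 12 of 18 alternatives (adjusted p up to 0.285 from edgeR or DESeq2), including without WT replicate 1, 2 or 3. Psf2, Psf3 and the kinase Cdc7 were not called in any of the comparisons with WT.

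Of the polymerases, the primase-coupled subunits PolA1 and PolA2 and the leading-strand subunits PolE1 and PolE2 rose under each construct. PolA1 measured 7.90, 8.74 and 9.60 CPM in OKSM, 11.3, 7.15 and 10.4 CPM in Sen, 6.55, 11.3 and 8.51 CPM in OKSM-Sen, and 4.51, 3.30 and 3.86 CPM in WT. PolA2 measured 3.77, 3.16 and 3.43 CPM in OKSM, 4.74, 2.81 and 3.69 CPM in Sen, 3.91, 3.46 and 4.34 CPM in OKSM-Sen, and 1.91, 1.52 and 1.65 CPM in WT. Again the construct libraries all lay above WT. PolE1 was at 5.55, 3.78 and 5.61 CPM in OKSM, 7.13, 6.39 and 8.09 CPM in Sen, 7.996, 6.28 and 8.02 CPM in OKSM-Sen, and 3.05, 2.92 and 2.94 CPM in WT. Its log2 fold changes were 0.75 ± 0.19, 1.27 ± 0.19 and 1.32 ± 0.19 SE (adjusted p = 0.0175, 0.00087 and 0.00141). PolE2 was at 2.42, 1.51 and 1.62 CPM in OKSM, 3.27, 1.64 and 1.92 CPM in Sen, 1.74, 1.35 and 2.31 CPM in OKSM-Sen, and 1.40, 0.508 and 0.490 CPM in WT. WT replicate 1 overlapped OKSM-Sen, and the PolE2 call ended under 6, 2 and 11 of 18 alternatives in OKSM, Sen and OKSM-Sen (adjusted p up to 0.232, 0.112 and 0.291). PolD1, the catalytic subunit of the lagging-strand polymerase delta, was not called (log2 0.45, 0.20 and 0.50).

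PCNA, the sliding clamp, was at 14.7, 9.70 and 17.1 CPM in OKSM, 18.4, 14.4 and 17.0 CPM in Sen, 11.4, 14.4 and 14.1 CPM in OKSM-Sen, and 6.48, 2.99 and 5.02 CPM in WT of the ISC model. The groups did not overlap WT, and the log2 fold changes were 1.52 ± 0.27, 1.78 ± 0.27 and 1.46 ± 0.27 SE (adjusted p = 0.00376, 0.00112 and 0.00454). The genes of its loader showed no such rise. RfC3, RfC4, RfC38 and Gnf1, the large loader subunit, were not called in any of these comparisons, and their log2 fold changes lay between -0.09 and 0.54. The subunits of ribonucleotide reductase also differed. RnrL, the large subunit, measured 18.1, 18.6 and 19.4 CPM in OKSM, 29.1, 19.5 and 22.9 CPM in Sen, 21.9, 24.4 and 21.1 CPM in OKSM-Sen, and 8.71, 4.57 and 9.80 CPM in WT, with log2 fold changes of 1.28, 1.63 and 1.55. RnrS, the small subunit, measured 34.5, 31.8 and 43.5 CPM in OKSM, 42.2, 37.4 and 38.0 CPM in Sen, 38.8, 41.0 and 36.2 CPM in OKSM-Sen, and 41.1, 31.4 and 26.8 CPM in WT. It overlapped WT under each construct and was not called, with log2 fold changes of 0.15 to 0.24.

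At the origins the response was uneven. Orc2 rose in all 3 comparisons (log2 1.38, 1.44 and 1.38), with 2.704, 2.06 and 2.12 CPM in OKSM, 2.87, 1.76 and 2.56 CPM in Sen, 2.10, 2.31 and 2.47 CPM in OKSM-Sen, and 1.40, 0.381 and 0.857 CPM in WT. Orc6 rose as well (log2 0.76, 0.76 and 0.59), with 2.704, 2.75 and 2.31 CPM in OKSM, 2.69, 2.75 and 2.34 CPM in Sen, 2.22, 1.86 and 2.80 CPM in OKSM-Sen, and 1.46, 1.46 and 1.65 CPM in WT. The Orc2 call in OKSM-Sen ended without the pair of corrected libraries (adjusted p = 0.11), and that of Orc6 ended under 13 of 18 alternatives (up to 0.31), including without each of the WT libraries 1 and 2. The gene lat (Orc3) was called in OKSM-Sen only at the edge of the threshold (log2 0.67 ± 0.26 SE, adjusted p = 0.0923). That call ended under 15 of 18 alternatives (up to 0.262), and the gene shares all of its exons with CG34315 on the same strand, so its counts are uncertain. Orc4 and Orc5 were not called.

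Of the licensing genes Cdc6, dup and geminin, 1 was called against WT, dup in Sen and OKSM-Sen. The Cdt1 gene dup measured 8.18, 9.49 and 11.8 CPM in OKSM, 9.94, 11.3 and 11.1 CPM in Sen, 11, 11.7 and 11.9 CPM in OKSM-Sen, and 9.41, 7.49 and 7.16 CPM in WT of the ISC model. It rose in Sen (log2 0.42 ± 0.15 SE, adjusted p = 0.0596) and OKSM-Sen (0.52 ± 0.15, adjusted p = 0.0329). The Sen call of dup ended without Sen replicate 2 or 3 or WT replicate 2 or 3 (adjusted p up to 0.177), and the OKSM-Sen call without WT replicate 2, and both ended without the pair of corrected libraries (up to 0.123 in OKSM-Sen). Its inhibitor geminin measured 19.8, 20.0 and 16.6 CPM in OKSM, 20.5, 19.6 and 19.4 CPM in Sen, 23.8, 18.7 and 17.2 CPM in OKSM-Sen, and 24.2, 23.2 and 19.4 CPM in WT, and was not called (log2 -0.24 to -0.16). Cdc6 measured 1.57, 2.06 and 2.24 CPM in OKSM, 2.28, 2.23 and 2.56 CPM in Sen, 2.16, 2.76 and 1.92 CPM in OKSM-Sen, and 2.23, 1.40 and 1.96 CPM in WT. It was not called (log2 0.34 ± 0.25 SE in Sen), and the lowest Sen library, at 2.226 CPM, stood level with the highest WT library, at 2.225 CPM.

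At S-phase entry, the cyclin rose and the transcription factor was not called. CycE was at 5.55, 3.65 and 6.05 CPM in OKSM, 7.19, 5.56 and 6.18 CPM in Sen, 4.81, 6.41 and 6.15 CPM in OKSM-Sen, and 3.81, 1.40 and 1.96 CPM in WT. Its log2 fold changes were 1.09 ± 0.33, 1.40 ± 0.33 and 1.27 ± 0.33 SE (adjusted p = 0.0367, 0.0103 and 0.0207). WT replicate 1 overlapped OKSM. The OKSM call ended without OKSM replicate 3 or WT replicate 2, and with OKSM and WT libraries alone (up to 0.117). E2f1 was at 95.9, 103 and 101.2 CPM in OKSM, 99.2, 106 and 105 CPM in Sen, 120, 112 and 116 CPM in OKSM-Sen, and 120, 111 and 104 CPM in WT, with log2 fold changes between -0.15 and 0.05, and the 3 OKSM libraries lay just below the WT libraries. CycE lies at chromosome 2L, 15727581 to 15748150, Mcm10 at 2L, 21179933 to 21182812, Mcm5 at 3R, 10788524 to 10791150, and PCNA at 2R, 20261754 to 20262883 (BDGP6.54 annotation).

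**Figure D2:**
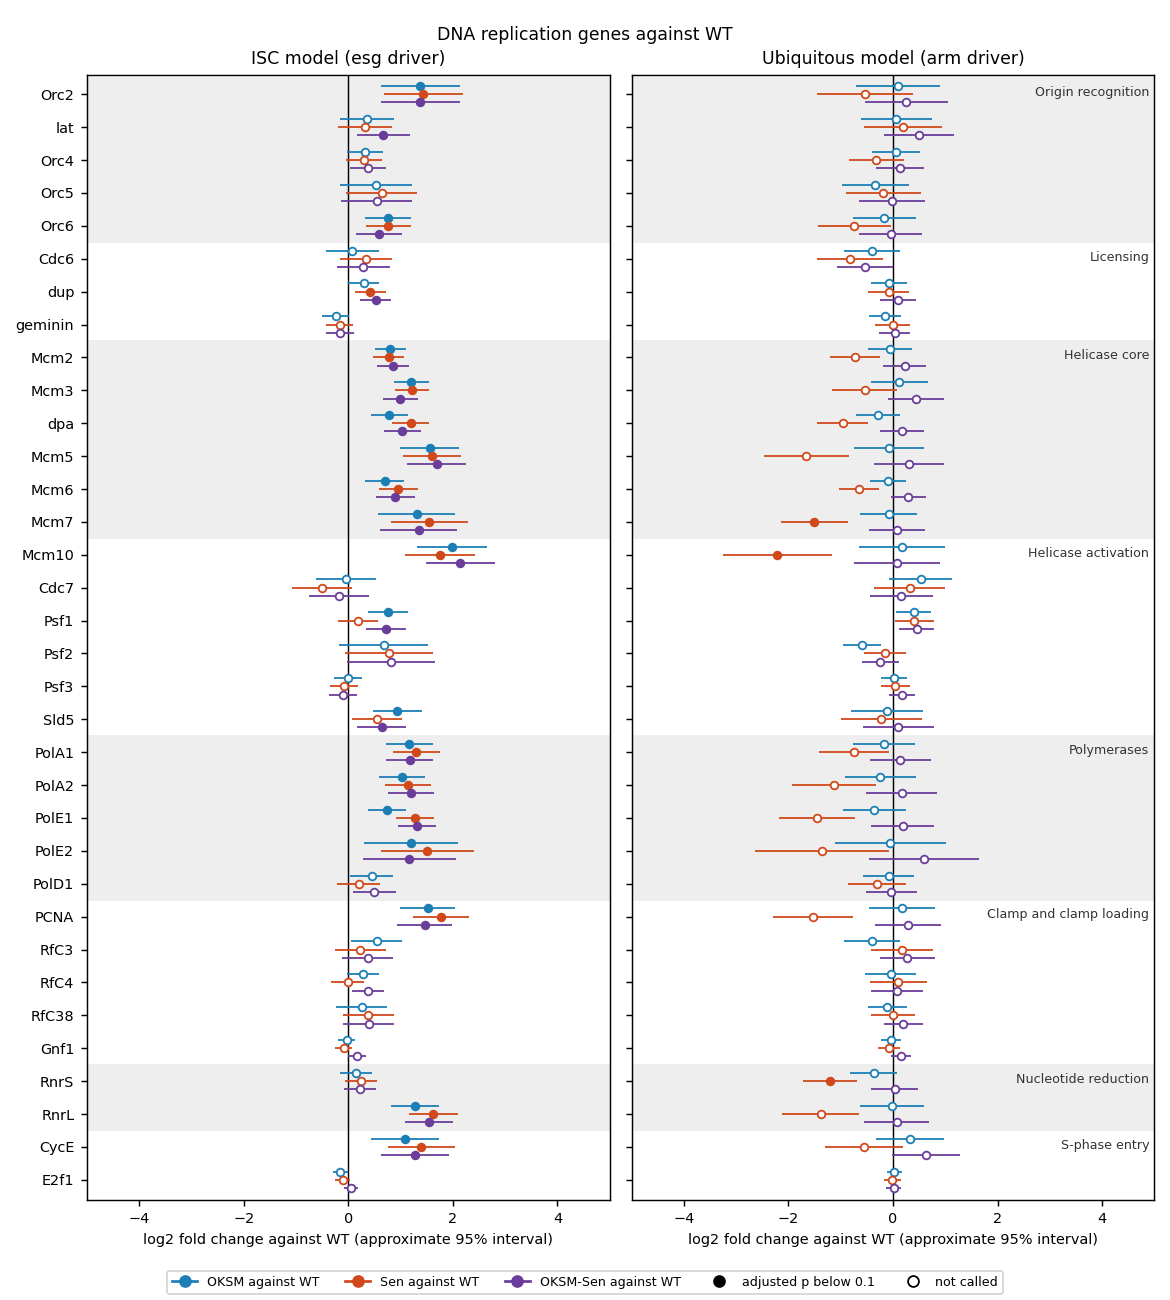
Log2 fold change against WT of each of the 34 replication genes under OKSM, Sen and OKSM-Sen in the ISC model (left) and the ubiquitous model (right), with an approximate 95% interval; filled points passed the 10% false discovery rate. In the ISC model 18, 17 and 20 genes were called higher, and in the ubiquitous model 3 genes were called lower in Sen.

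The constructs were not told apart from each other in the ISC model. OKSM-Sen against OKSM, OKSM-Sen against Sen and Sen against OKSM gave 0 called replication genes by edgeR and 0 by DESeq2. At an unadjusted p under 0.05 there were 3, 4 and 3. By edgeR, 0.672%, 0.555% and 5.04% of all genes were called. Here and below, shares of all genes called are edgeR calls after adjustment. They are not a background for counts at an unadjusted p or by DESeq2, for which no share is given. The approximate 95% interval of the Mcm2 log2 difference between OKSM-Sen and OKSM ran from -0.24 to 0.35, and between Sen and OKSM from -0.32 to 0.26. Because both single constructs and the combination stood at similar levels, the interaction term, which compares OKSM-Sen with the sum of the single effects, was below 0 for 29 of 34 genes (median -0.67, beside 0.03 over all genes). It was called lower for 14 replication genes, where 11.4% of all genes were, and higher for 1, E2f1, where 10.6% of all genes were. The largest called terms were those of PCNA (-1.84 ± 0.37 SE, adjusted p = 0.0129), Mcm10 (-1.59 ± 0.46, 0.0436), Mcm7 (-1.51 ± 0.52, 0.0786) and Mcm5 (-1.47 ± 0.39, 0.0344). In E2f1 the term was 0.31 ± 0.10 (0.0638), a call that ended under 9 of 17 alternatives. Calls that held under all 17 were those of Mcm3, Mcm5 and PCNA. With 1 library left out the 15 calls became 8 (OKSM replicate 1), 7 (Sen replicate 1 or WT replicate 2) or 9 (OKSM-Sen replicate 1 or Sen replicate 3), and without the pair of corrected libraries they became 4. Over the 4 conditions 18 of the 34 genes differed, where 35.7% of all genes did.

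In the ubiquitous model few replication genes were called. OKSM against WT called 0 replication genes (2 at an unadjusted p under 0.05, 0 by DESeq2; 1.09% of all genes called) with a median log2 fold change of -0.07. OKSM-Sen against WT called 0 as well (1 at an unadjusted p under 0.05, 0 by DESeq2; 1.16% of all genes called) with a median of 0.15. In Sen, 3 genes fell, Mcm7, Mcm10 and RnrS, which is 8.82% of the 34, where 1.2% of all 9637 genes fell. The median was -0.54, beside -0.01 over all genes. At an unadjusted p under 0.05, 12 replication genes were lower, and no share of all genes at that threshold is given.

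RnrS measured 16.3 and 10.4 CPM in ubiquitous Sen, against 34.1, 36.6 and 21.95 CPM in WT, and it measured 20.6, 22.9 and 28.2 CPM in OKSM and 27.3, 32.4 and 34.9 CPM in OKSM-Sen. The log2 fold change in Sen was -1.21 ± 0.26 SE (adjusted p = 0.0726). Mcm7 measured 1.38 and 2.11 CPM in Sen, against 4.24, 6.73 and 3.88 CPM in WT, and 3.55, 4.85 and 5.63 CPM in OKSM and 4.35, 5.09 and 6.28 CPM in OKSM-Sen. It changed by -1.50 ± 0.33 (0.0726). Mcm10 measured 0.508 and 0.277 CPM in Sen, against 1.38, 3.10 and 1.02 CPM in WT, and 1.74, 1.73 and 2.71 CPM in OKSM and 1.65, 1.83 and 2.30 CPM in OKSM-Sen. It changed by -2.21 ± 0.53 (0.0936), with 18 and 10 reads in the Sen libraries. In each of the 3 genes both Sen libraries lay below all other libraries of the model. The 3 calls rested on few libraries. No member was called when OKSM replicate 2, either Sen library, WT replicate 1 or 2, or OKSM-Sen replicate 2 or 3 was left out, nor with Sen and WT libraries alone, while 6 were called without WT replicate 3 and 9 by DESeq2. WT replicate 2 was the highest of the WT libraries in 30 of the 34 genes.

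Other members of the ring, the clamp and RnrL were lower in both Sen libraries than in every other ubiquitous library, but were not called. Mcm5 was at 0.903 and 1.53 CPM in Sen, against 2.97, 5.63 and 2.93 CPM in WT, and at 2.696, 3.78 and 4.53 CPM in OKSM and 4.11, 3.79 and 6.28 CPM in OKSM-Sen. PCNA was at 2.03 and 2.83 CPM in Sen, against 6.15, 10.2 and 4.72 CPM in WT, and at 5.42, 8.79 and 9.49 CPM in OKSM and 7.33, 7.03 and 11.2 CPM in OKSM-Sen. RnrL was at 4.43 and 5.85 CPM in Sen, against 10.95, 19.3 and 10.1 CPM in WT, and at 10.3, 11.02 and 18.5 CPM in OKSM and 10.8, 13.7 and 17.8 CPM in OKSM-Sen. Sen did not overlap the other groups in these genes, nor in dpa, Mcm2, Mcm3, Mcm6 and PolE1. The share of all genes separated in this way was not counted in either model. Such separation, here and in the ISC model, is therefore a description only. For dpa the values were 4.01 and 4.33 CPM in Sen, against 6.44, 10.5 and 7.46 CPM in WT. Mcm6 was at 4.54 and 4.38 CPM in Sen, against 6.34, 8.45 and 6.29 CPM in WT. For Mcm2 they were 2.93 and 2.94 CPM in Sen, against 3.74, 6.61 and 4.29 CPM in WT. Mcm3 differed little from the lower WT libraries, with 3.33 and 3.30 CPM in Sen, against 3.50, 7.24 and 3.73 CPM in WT. In PolE1 Sen was at 1.44 and 2.16 CPM, against 4.904, 6.32 and 3.61 CPM in WT.

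The remaining members were not called in ubiquitous Sen, and most overlapped WT. PolA1 was at 2.96 and 3.69 CPM in Sen, against 5.30, 7.82 and 3.67 CPM in WT, and PolA2 at 0.592 and 1.36 CPM in Sen, against 2.02, 2.56 and 1.85 CPM in WT. Only PolA2 of this pair lay below WT in both libraries. PolE2 was at 0.197 and 0.555 CPM in Sen, against 1.01, 1.35 and 0.555 CPM in WT. Orc2, at 1.81 and 0.777 CPM in Sen, overlapped WT at 1.78, 2.73 and 1.11 CPM. Orc6 was at 1.47 and 0.916 CPM in Sen, against 1.38, 2.62 and 1.97 CPM in WT, and Cdc6 at 1.52 and 1.17 CPM in Sen, against 1.56, 2.99 and 2.59 CPM in WT. Both Cdc6 values were below WT. The genes of S-phase entry and the other licensing genes overlapped WT. CycE was at 1.58 and 1.83 CPM in Sen, against 2.12, 3.62 and 1.82 CPM in WT. For E2f1 the levels were 93.4 and 93.6 CPM in Sen, against 98.3, 89.3 and 95.1 CPM in WT. The dup values were 7.28 and 7.80 CPM in Sen, against 7.45, 9.92 and 6.57 CPM in WT, and those of geminin 22.4 and 18.1 CPM in Sen, against 16.0, 23.3 and 21.6 CPM in WT. The GINS gene Psf1, chosen here after its values were seen, went the other way from the ring in Sen. It measured 3.92, 3.37 and 4.99 CPM in OKSM, 4.40 and 3.83 CPM in Sen and 4.20, 4.47 and 4.10 CPM in OKSM-Sen, against 3.00, 3.28 and 3.05 CPM in WT. Every construct library lay above WT, but the log2 fold changes of 0.40, 0.40 and 0.45 (± 0.17, 0.19 and 0.17 SE) were not called (adjusted p = 0.466, 0.375 and 0.441).

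Adding OKSM to Sen was accompanied by higher replication gene levels in the ubiquitous model. OKSM-Sen against Sen called 8 of the 34 genes higher and none lower, or 23.5%, where 1.17% of all genes were called higher. They were Mcm10 (log2 2.29 ± 0.53 SE), Mcm5 (1.96 ± 0.42), PCNA (1.81 ± 0.39), PolE1 (1.64 ± 0.37), Mcm7 (1.58 ± 0.33), RnrS (1.24 ± 0.26), dpa (1.14 ± 0.25) and Mcm6 (0.95 ± 0.20), with adjusted p between 0.0668 and 0.0991. The 8 calls became 1 when OKSM replicate 2 or OKSM-Sen replicate 1 was left out, and 0 when either Sen library or OKSM-Sen replicate 2 or 3 was. By DESeq2 14 were called. Only RnrS had a called interaction term (1.61 ± 0.35, adjusted p = 0.0988; 0.488% of all genes were called higher), and that call held under 3 of 15 alternatives, which were DESeq2, no filter on low counts, and leaving out WT replicate 3, so it ended without each of the other libraries in turn. Sen against OKSM called 0 (11 at an unadjusted p under 0.05, 7 by DESeq2; 1.25% of all genes called), with 1 called without OKSM replicate 1, 3 without WT replicate 2 and 2 without WT replicate 3. OKSM-Sen against OKSM called 0 (2 at an unadjusted p under 0.05, 0 by DESeq2; 0.301% of all genes called). The test over the 4 conditions called 0 (10 at an unadjusted p under 0.05, 10 by DESeq2; 2.61% of all genes called), with 6 called without WT replicate 2 and 1 without WT replicate 3.

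The effect of Sen was then compared between the models, in a fit of all 23 libraries. The ISC model had the higher log2 fold change against WT for 18 of the 34 genes, or 52.9%, where 14.2% of all genes were, and it was lower for none. The median difference was 1.29, beside -0.04 over all genes. Mcm10 differed most, by 3.96 ± 0.63 SE (adjusted p = 0.000646), followed by PCNA at 3.29 ± 0.49 (0.000471), Mcm5 at 3.24 ± 0.51 (0.000643), Mcm7 at 3.03 ± 0.54 (0.00118) and RnrL at 3.00 ± 0.45 (0.000532). All 6 helicase core genes, both ribonucleotide reductase genes and 4 of the 5 polymerase genes were among the 18. E2f1 (-0.11), geminin (-0.18) and the loader genes were not called. The count stayed between 17 and 19 when each of the 23 libraries was left out in turn, and was 17 without the pair of corrected libraries.

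**Figure D3:**
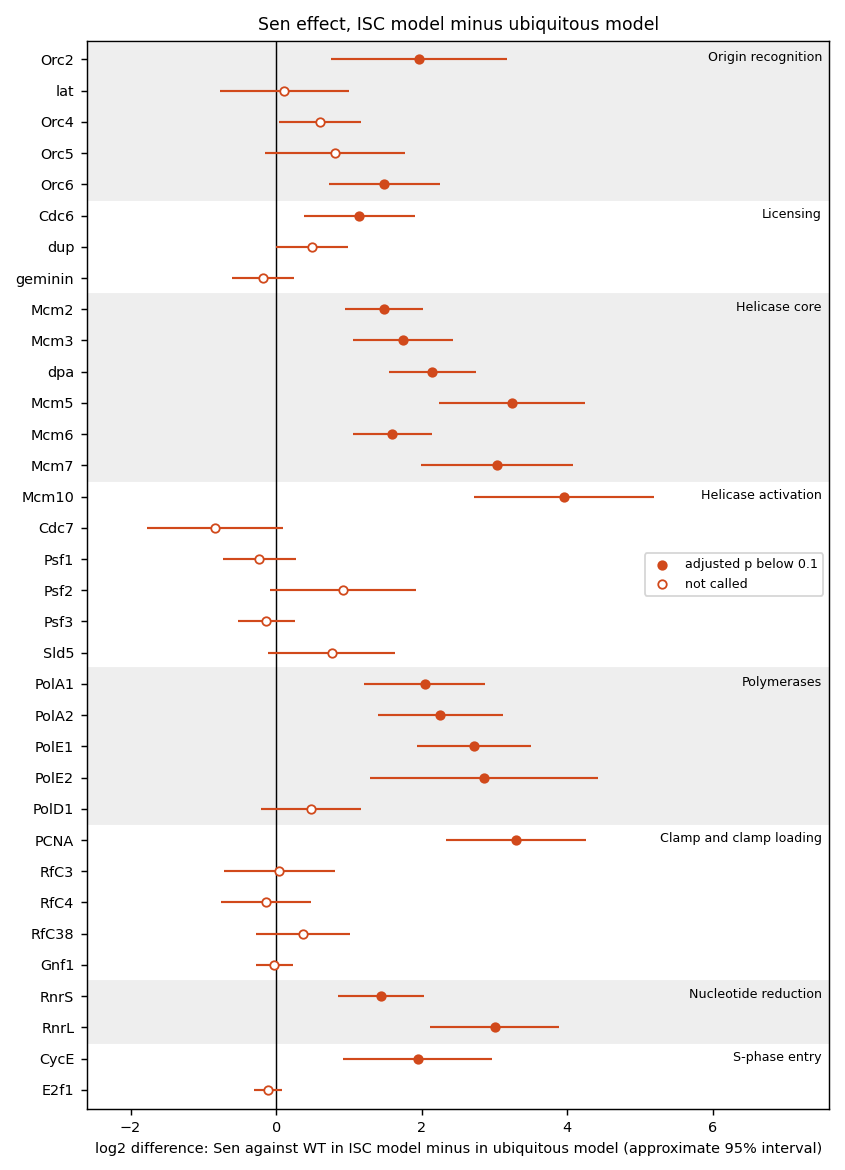
Difference between the Sen effect in the ISC model and that in the ubiquitous model for each replication gene (log2, approximate 95% interval; filled points passed the 10% false discovery rate). The 18 called genes lay between 1.14 (Cdc6) and 3.96 (Mcm10), while E2f1, geminin and the clamp loader genes lay near 0.

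For OKSM the difference between the models was called for 4 genes, Mcm5 (1.60 ± 0.46 SE), PolA1 (1.31 ± 0.39), dpa (1.04 ± 0.28) and Mcm2 (0.83 ± 0.25), with adjusted p between 0.0752 and 0.0989. That is 11.8% of the 34 genes, where 1.73% of all genes were higher, and the median difference was 0.84. This count depended on single libraries. It was 0 without ubiquitous OKSM replicate 1, ubiquitous WT replicate 2, ISC OKSM replicate 1 or 3, ISC OKSM-Sen replicate 3, or ISC WT replicate 1 or 2, and 1 without ubiquitous OKSM replicate 2 or ISC Sen replicate 2 or 3. It was 2 without ubiquitous OKSM-Sen replicate 1 or 2 or ISC Sen replicate 1, 7 without ubiquitous OKSM replicate 3 or ISC WT replicate 3, and 9 without ubiquitous WT replicate 3. Without the pair of corrected libraries it was 0, and by DESeq2 it was 12. For OKSM-Sen no replication gene was called (13 at an unadjusted p under 0.05, 5 by DESeq2; 1.46% of all genes called), with a median difference of 0.56. Leaving out ubiquitous OKSM replicate 1, ubiquitous WT replicate 3 or ISC WT replicate 3 gave 3 calls, leaving out ubiquitous OKSM-Sen replicate 3 gave 2, and leaving out ubiquitous OKSM replicate 3, ubiquitous Sen replicate 2 or 3, or ISC OKSM-Sen replicate 2 gave 1.

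A second list held 35 other replication genes. Of these, 11 rose and 1 fell in OKSM, 17 rose in Sen and 17 rose in OKSM-Sen in the ISC model, where 17.3%, 18.2% and 15.7% of all genes rose. Claspin, a fork checkpoint protein, rose by log2 1.66, 1.85 and 1.88 in OKSM, Sen and OKSM-Sen, and Ts (thymidylate synthase) by 1.67, 2.10 and 1.71. The histone chaperone asf1 rose by 0.72, 0.81 and 0.63. Dp, the partner of E2f proteins, fell by 0.27 on the log2 scale in OKSM. The summed CPM of this list was 612 to 663 in OKSM, 687 to 752 in Sen and 670 to 720 in OKSM-Sen, against 568 to 642 in WT. In ubiquitous Sen 1 of the 35 was called, Ts, which changed by -2.01 ± 0.49 SE (adjusted p = 0.0983).

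Some genes of mitosis and cytokinesis were called too. Of 44 tested in the ISC model, 14 rose in OKSM, 16 rose and 1 (Zw10) fell in Sen, and 15 rose in OKSM-Sen, beside the same shares of all genes. The centrosome protein gene cnn rose by log2 0.51, 1.49 and 1.28 in OKSM, Sen and OKSM-Sen, and the RhoGEF of cytokinesis pbl by 0.89, 1.09 and 0.94. In ubiquitous Sen 8 of 46 fell, where 1.2% of all genes did. The mitotic kinesin Klp61F changed by -1.67 ± 0.24 SE (adjusted p = 0.0172), the anillin scra by -1.60 ± 0.27 (0.0271) and the cytokinesis kinesin pav by -1.62 ± 0.31 (0.0428).

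The summed level of genes listed as markers of ISCs and enteroblasts was higher than WT under each ISC construct and lower in ubiquitous Sen. The helicase core sum moved likewise in those groups. In ubiquitous OKSM-Sen the marker sum stood at or above the top of WT, while the helicase core sum overlapped WT. The part of the markers in the result was not tested. The 10 listed were esg, Dl, Sox21a, Sox100B, klu, E(spl)mbeta-HLH, N, spdo, upd3 and vn. The signaling genes upd3 and vn need not be made by these cells, and the list was not checked for cell specificity. Of these 10 markers, 6 rose under OKSM, 10 under Sen and 7 under OKSM-Sen in the ISC model, where 17.3%, 18.2% and 15.7% of all genes rose. The summed CPM of the markers was 134 to 171 in OKSM, 189 to 216 in Sen and 167 to 170 in OKSM-Sen, against 72.5 to 102 in WT. In the ubiquitous model the sum was 104 to 145 in OKSM, 61.8 and 76.7 in Sen and 143 to 176 in OKSM-Sen, against 92.5 to 143 in WT. There 3 markers (Dl, Sox21a and Sox100B) fell in Sen, where 1.2% of all genes fell. The summed CPM of the 6 helicase core genes was 41.4 to 51.8 in OKSM, 46.9 to 65.7 in Sen and 46.9 to 56.1 in OKSM-Sen, against 18.4 to 27.3 in WT of the ISC model. In the ubiquitous model it was 26.3 to 36.4 in OKSM, 17.1 and 18.6 in Sen and 35.0 to 48.0 in OKSM-Sen, against 27.2 to 45.1 in WT. Divided library by library by the marker sum, a ratio chosen after the values were seen, the helicase core gave 0.303 to 0.369 in OKSM, 0.248 to 0.304 in Sen and 0.281 to 0.330 in OKSM-Sen, against 0.253 to 0.286 in WT of the ISC model. The ratio was 0.247 to 0.306 in OKSM, 0.242 and 0.277 in Sen and 0.230 to 0.272 in OKSM-Sen, against 0.203 to 0.316 in WT of the ubiquitous model. Over all 34 genes the same ratio was 2.30 to 3.06 in OKSM, 2.01 to 2.12 in Sen and 2.53 to 2.65 in OKSM-Sen, against 3.43 to 4.42 in WT of the ISC model. In the ubiquitous model it was 2.19 to 2.82 in OKSM, 4.25 and 3.05 in Sen and 1.96 to 2.19 in OKSM-Sen, against 2.17 to 3.03 in WT. The helicase core ratio lay above WT in ISC OKSM and overlapped WT in the other groups. The ratio over all 34 genes lay below WT in every ISC group. In ubiquitous Sen the lower library, at 3.05, stood barely above the highest WT library, at 3.03. A sum over all 34 genes gives most weight to abundant genes such as E2f1, at 104 to 120 CPM in ISC WT and not called against WT. That ratio thus largely follows the marker sum.

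**Figure D4:**
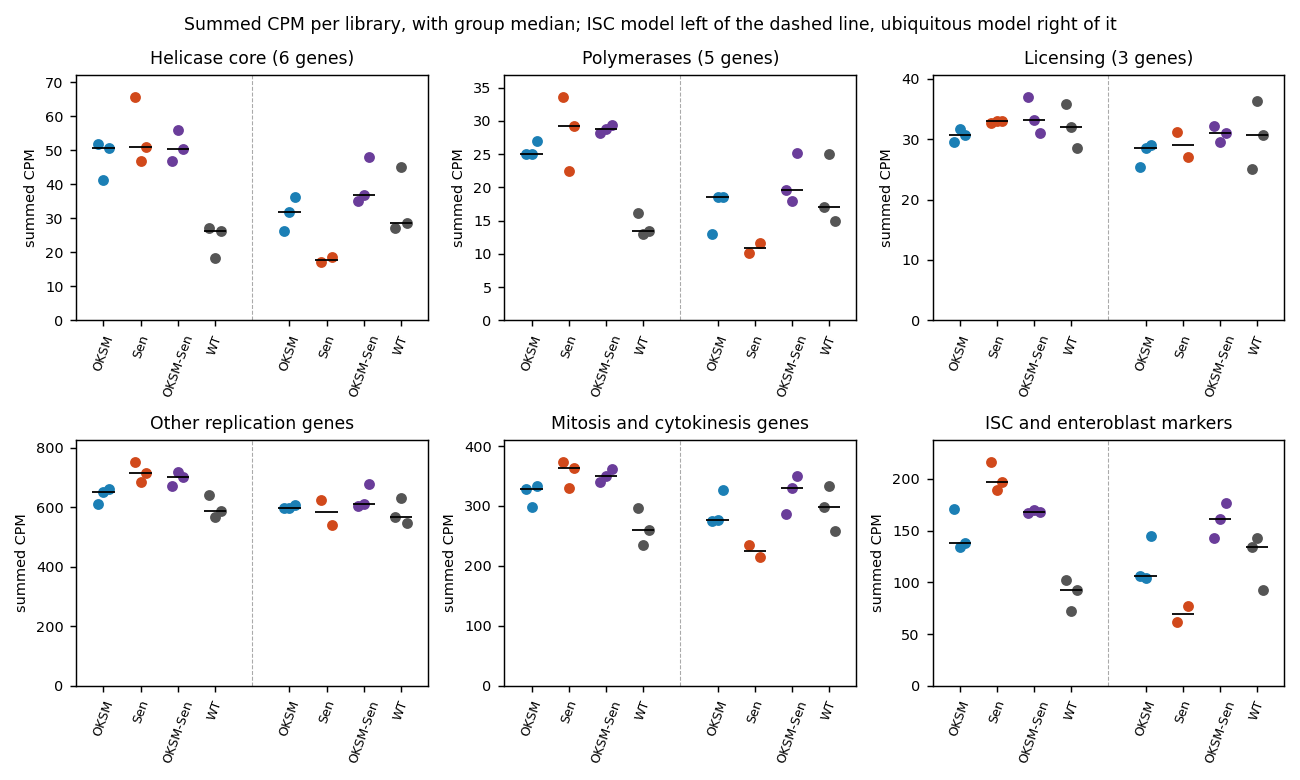
Summed CPM per library of the helicase core, the polymerases, the licensing genes, the other replication genes, the mitosis and cytokinesis genes and the ISC and enteroblast markers (points, libraries; lines, group medians; ISC model left of the dashed line, ubiquitous model right of it). The helicase core lay at 41.4 to 65.7 CPM in the ISC construct libraries, against 18.4 to 27.3 CPM in ISC WT, and at 17.1 and 18.6 CPM in ubiquitous Sen, while the licensing genes overlapped WT in every group.

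Markers of other cell types also differed between groups, and their part in the replication gene results was not tested. The 10 enterocyte genes of the ISC model summed to 16230 to 51330 CPM in OKSM, 27080 to 36240 CPM in Sen and 20200 to 35720 CPM in OKSM-Sen, against 47090 to 66720 CPM in WT. Lower calls among them numbered 2 under OKSM, 3 under Sen and 4 under OKSM-Sen, and higher calls 1, 1 and 2. Of all genes, 17.3%, 18.2% and 15.7% were called higher under these constructs, and no share called lower is given. The call counts of these short marker lists, here and below, are therefore a description only. In ubiquitous Sen the enterocyte genes summed to 60500 and 94700 CPM, against 53640 to 60030 CPM in WT. Malpighian tubule markers of the ISC model summed to 572 to 667 CPM in OKSM, 438 to 965 CPM in Sen and 147 to 954 CPM in OKSM-Sen, against 259 to 312 CPM in WT, and OKSM and Sen did not overlap WT, although edgeR called 0 of the 5 genes (1 at an unadjusted p under 0.05 in OKSM and 1 in Sen). Visceral muscle markers summed to 1023 to 1906 CPM in OKSM, 1076 to 1214 CPM in Sen and 746 to 1033 CPM in OKSM-Sen, against 794 to 921 CPM in WT of the ISC model, and 4 of 5 (Mlc2, up, Mhc and wupA) rose in OKSM. Of 10 enteroendocrine markers, higher calls numbered 3, 1 and 3 under OKSM, Sen and OKSM-Sen, and lower calls 0, 2 and 1, with sums of 650 to 773 CPM in OKSM, 574 to 597 CPM in Sen and 634 to 811 CPM in OKSM-Sen, against 609 to 668 CPM in WT. The fat body gene Lsd-1 fell under each ISC construct. Ovary and egg genes summed to 499 to 641 CPM in OKSM, 212 to 1175 CPM in Sen and 618 to 2083 CPM in OKSM-Sen, against 543 to 743 CPM in WT of the ISC model, and of the 13 tested Cp15 rose in OKSM and Cp18, otu and exu rose in Sen. In ubiquitous Sen otu rose.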

How the data were processed

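Midgut RNA was sequenced as paired reads of 151 bp. The authors aligned the reads to BDGP6.22 (Ensembl 97; dm6 per the labels) with STAR 2.7.1a, and the deposited values are RSEM 1.3.1 expected counts per gene, with effective lengths. Here the expected counts were rounded, 390 genes for rRNA, snoRNA or snRNA were removed, as were those averaging under 10 reads in a model, and each model was fitted apart over its 4 groups with edgeR 4.0.16 (TMM, quasi-likelihood test, R 4.3.3). Calls are at a Benjamini-Hochberg adjusted p below 0.1 over all genes. Shares of all genes called are by edgeR at this threshold. No such share is given for counts at an unadjusted p or by DESeq2. Differences between models came from 1 fit of all 23 libraries. CPM are reads per 1000000 of the remaining genes, scaled by TMM. Intervals are normal approximations from the SE. All 34 genes passed the filter in both models. Replicates of a group differed beyond counting noise (chi-square per gene of at least 22.3). The fits were tested on simulated data. Alternatives were DESeq2 1.42.0, RLE size factors, no filter, the replicate number as a block, the compared groups alone, and leaving out each library. The members and gene lists were chosen with earlier results of these data known. Per-library values are given for the 6 members with the smallest p over the 4 conditions per model, for CycE, E2f1, geminin, dup, PCNA and RnrS, and for members called in interaction or model tests, and up to 6 genes of each other list were named by smallest p where called against WT. Values beyond this rule, and the genes Dp and Zw10, were added after the values were seen. Exons of 15 members overlap another annotated gene. No promoter or protein sequences were used here, so the planned motif search was not run.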

Additional observations from a re-analysis of the deposited data

Results flagged for a closer look

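The Sen effect on 18 replication genes differed between the ISC model and the ubiquitous model by a test of the difference itself (edgeR, adjusted p below 0.1). The log2 differences, ISC minus ubiquitous, were 1.48 for Mcm2, 1.74 for Mcm3, 2.14 for dpa, 3.24 for Mcm5, 1.60 for Mcm6, 3.03 for Mcm7 and 3.96 for Mcm10. For the other genes of synthesis they were 3.29 for PCNA, 1.44 for RnrS, 3.00 for RnrL, 2.04 for PolA1, 2.26 for PolA2, 2.72 for PolE1 and 2.85 for PolE2. At the origins and S-phase entry they were 1.96 for Orc2, 1.49 for Orc6, 1.14 for Cdc6 and 1.95 for CycE. In 15 of the 18 the call held under all 28 alternatives tried, and the exceptions were Cdc6 (lost under 4), Orc2 (without ubiquitous Sen replicate 3) and PolE2 (without ubiquitous Sen replicate 2). The OKSM effect differed between the models in Mcm2 (0.83), dpa (1.04), Mcm5 (1.60) and PolA1 (1.31), and each of these 4 calls was lost under 10 or more alternatives. Driver and sequencing depth cannot be told apart between the models. Groups of 2 or 3 libraries were not tested for outlying samples.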

How the results depend on the processing

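No result reversed its direction under any alternative. In the ISC model the counts of called replication genes against WT moved by less than 1.5 times under every alternative, with ranges over left-out libraries of 16 to 20 (OKSM), 15 to 19 (Sen) and 15 to 21 (OKSM-Sen), and 13 to 19 over the 4 conditions. The count for the ISC interaction ranged from 7 to 14 over left-out libraries and was 4 without the pair of corrected libraries, an alternative chosen after seeing the data. With DESeq2 in place of edgeR the ubiquitous counts were 9 for Sen against WT, 14 for OKSM-Sen against Sen, 7 for Sen against OKSM, 9 for the interaction and 10 over the 4 conditions, and the model differences were 12 for OKSM and 5 for OKSM-Sen. Over left-out libraries the ubiquitous counts ranged from 0 to 6 for Sen against WT, from 0 to 11 for OKSM-Sen against Sen, from 0 to 3 for Sen against OKSM, from 0 to 2 for the interaction and from 0 to 6 over the 4 conditions. The model differences ranged from 0 to 9 for OKSM, from 17 to 19 for Sen and from 0 to 3 for OKSM-Sen. With the compared groups alone, Sen against WT in the ubiquitous model gave 0. With RLE size factors the ubiquitous interaction gave 0 and the OKSM-Sen model difference 1. Without the filter on low counts the OKSM model difference gave 0, as it did without the pair of corrected libraries. In the ubiquitous model 6 of 15 same-numbered and 8 of 30 other-numbered pairs had a correlation of deviations over 0.1 (medians 0.0874 and -0.0444). In the ISC model 4 of 18 and 14 of 36 had (medians -0.0114 and -0.0333). Same-numbered ubiquitous pairs ran from -0.367 to 0.469, so these few pairs do not settle whether the replicate numbers pair the samples. The replicate block gave 4 for OKSM-Sen against Sen in the ubiquitous model and moved no other count by over 1.5 times. The genes behind some counts changed under the block, which gave 2 for ubiquitous Sen against WT (1 shared with the 3), 1 for the ubiquitous interaction (0 shared) and 3 for the OKSM model difference (2 shared with the 4). Leaving out a ubiquitous Sen library leaves 1 in that group, which is assumed to vary like the other groups. The 2 libraries of ubiquitous Sen and the lower depth of the ISC model limit what low genes such as PolE2, Orc5 and Mcm10 can show.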
